A study of Mus musculus with 10 samples.

Results

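The genes described here encode the chloride and anion channel families of mammalian cells: the anoctamins (Ano), the ClC channels and exchangers (Clcn), the LRRC8 subunits, the chloride intracellular channel proteins (Clic), the bestrophins (Best), Cftr and the tweety homologues (Ttyh). They were chosen by gene symbol alone, and 36 of the 48440 genes in the expression table carry such a symbol: 10 Ano, 9 Clcn, 5 Lrrc8, 5 Clic, 3 Best, 3 Ttyh genes and Cftr. Expression was measured by RNA-seq in inner hair cells (IHCs), which signal to the auditory nerve, and outer hair cells (OHCs), which amplify sound vibration. The cells came from the organ of Corti of untreated mice of the CBA/J strain at an age of 28 to 32 days, as labelled, and were picked by suction pipette on their shape. Each library held about 1000 pooled cells of 1 type, with 2 libraries of IHCs (replicates 1 and 2) and 3 of OHCs (replicates 1, 2 and 3), and every library was sequenced in 2 lanes. Values are RPKM, reads per kilobase of exon and 1 M mapped reads, averaged over the lanes of a library, so that levels of different genes can be set side by side per length, on the exon lengths the authors used.

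Hair cells use chloride in ways that few other cells do. Prestin, the motor protein of OHCs encoded by Slc26a5, needs intracellular anions such as chloride to sense voltage, and the turgor of OHCs depends on the control of cell volume. Anoctamins are membrane proteins of which some are calcium-activated chloride channels and others move phospholipids between the leaflets of a membrane. ClC proteins are either chloride channels of the plasma membrane or chloride-proton exchangers of endosomes and lysosomes. LRRC8 proteins assemble into the volume-regulated anion channel, which opens when a cell swells.

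The depth behind the values was 19987044 to 23083994 reads per library, recovered from the RPKM values, and 3 reads in a library amount to 0.0650 to 0.0750 RPKM for a gene of 2 kb. Such limits cover counting error only, because the reads carry no molecular identifiers. The labels fit the hair cell markers: Slc26a5 measured 9.51 ± 0.845 RPKM in IHCs (SD, n = 2) and 549 ± 4.93 RPKM in OHCs (SD, n = 3), and Slc17a8, the glutamate transporter of IHC synapses, measured 50.2 ± 2.09 and 2.81 ± 0.147 RPKM. RNA of other cells was also present. Of 51 markers of other cell types, 43 were tested. IHCs had the higher level of 9 (20.9%) and OHCs of 29 (67.4%), where 34.4% of all genes tested were higher in each cell type. The summed level of the list was 1652 to 1664 RPKM in IHCs and 2819 to 2970 RPKM in OHCs. The 5 erythrocyte genes made up this gap, with 343 to 356 RPKM in IHCs and 1552 to 1666 RPKM in OHCs, and the other 46 markers summed to 1308 to 1309 RPKM and 1267 to 1305 RPKM. The sum of the supporting cell markers went the other way, 1043 RPKM in IHCs and 711 to 716 RPKM in OHCs. Of its 10 genes, however, 5 were higher in each cell type. Gjb2 averaged 405 RPKM in IHCs and 121 RPKM in OHCs, whereas Fgfr3 averaged 0.705 and 32.2 RPKM. The neuron and glia markers also had the larger sum in IHCs, 42.5 to 43.9 RPKM against 18.7 to 20.4 RPKM in OHCs. Of these 8 genes, however, 2 were higher in IHCs and 4 in OHCs, beside the same 34.4% each way. Leukocyte markers summed to 2.12 to 2.28 RPKM in IHCs and 76.9 to 79.8 RPKM in OHCs. The OHC sum lay mostly in S100a8 (27.5 RPKM), S100a9 (26.3 RPKM) and Ngp (22.3 RPKM). Of 6 leukocyte markers tested, 5 were higher in OHCs, beside the same 34.4%, and Csf1r was higher in IHCs, 0.446 against 0.00623 RPKM. Stria vascularis markers summed to 20.4 to 20.6 and 34.4 to 35.0 RPKM, of which Kcnj10 averaged 18.8 and 28.6 RPKM. Endothelial markers summed to 10.7 and 17.8 to 20.9 RPKM, nearly all from Egfl7 at 10.6 and 19.4 RPKM. Within these lists, Cx3cr1 of microglia and Tie1 of endothelium were at 0 in all libraries, and Esrrb of the stria vascularis was at 0 in 4 of 5 libraries. The part of these cells in the differences below was not tested. In such bulk samples, fewer cells of a type and less RNA per cell cannot be told apart.

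The anoctamins Ano3 and Ano4, Best1 and Ttyh3 were at least 2-fold higher in IHCs, while Lrrc8b and Clic5 were at least 2-fold higher in OHCs, each at 1 RPKM or more. Of the 36 members, 31 had a value above 0 in some library and 28 reached 0.1 RPKM in at least 2 libraries, the condition for the test. Of these 28, 9 were higher in IHCs (32.1%), against a background of 34.4% of all 16462 genes tested, and 14 were higher in OHCs (50%), against 34.4%. With a 2-fold difference in mean RPKM required as well, 5 members were higher in IHCs, where the background was 12.1%, and 5 were higher in OHCs, where it was 18.1%. The median log2 difference of the members (IHC minus OHC) was -0.24, and that of all genes tested was -0.01. Differences were tested with limma on log2(RPKM + 0.1), two-sided, with Benjamini-Hochberg adjustment over all genes and a threshold of 0.05, and folds are ratios of mean RPKM. An exact permutation test of a single gene over 5 libraries cannot go under p = 0.1. The p-values measure the spread between these libraries, which were made from pooled mice, and this spread may be technical. Values after ± are SD over libraries for levels and SE for log2 differences.

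**Figure D1:**
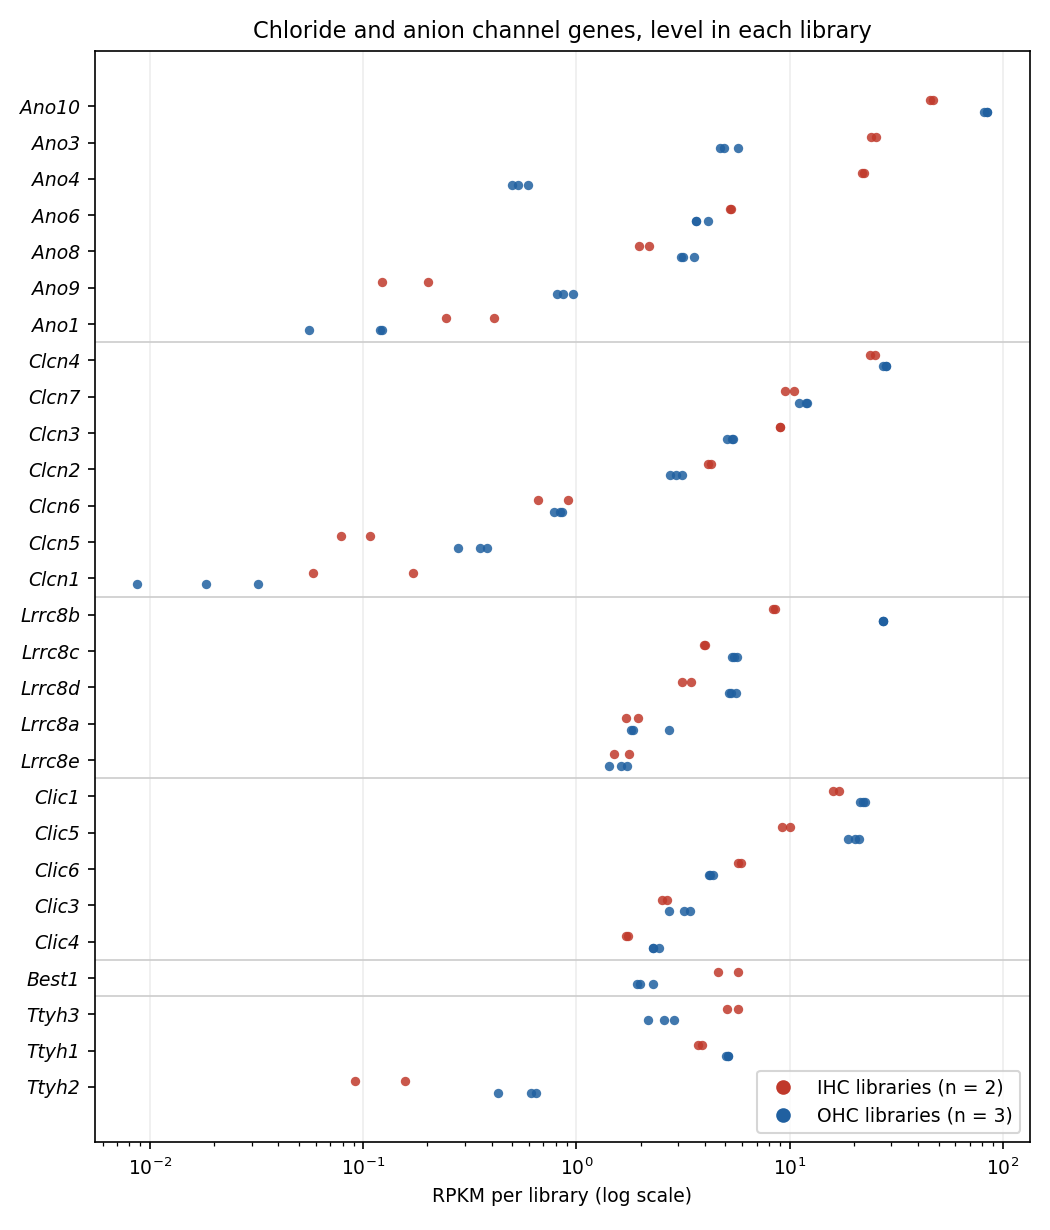
RPKM of 28 of the 29 members that reached 0.1 RPKM in at least 1 library, on a logarithmic axis, with 1 point per library (red, 2 IHC libraries; blue, 3 OHC libraries; values of 0 cannot be drawn). Ano10 lies highest in both cell types, and the red and blue points of Ano4 lie farthest apart, near 22 RPKM and near 0.5 RPKM.

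Promoters, the part of a gene at which transcription starts, are shown next for Ano4 and Ano3, the members with the largest log2 differences towards IHCs, and for the neighbours Lrrc8b, Lrrc8c and Lrrc8d, which were all higher in OHCs. Each runs 5′ to 3′ on the strand of its gene, from 250 bases before to 50 bases after a RefSeq transcription start in GRCm38.p6, and capitals mark the motifs searched on both strands: the GC box GGGCGG, the TATA box TATAAA, the T-box half-site AGGTGTGA, the E-box CAGCTG and the cyclic AMP response element TGACGTCA. Matches that overlap each other were counted separately. The windows are chr2:110950195-110950494 on the minus strand for Ano3, chr10:89257741-89258040 on the minus strand for Ano4, and, on the plus strand, chr5:105415525-105415824 for Lrrc8b, chr5:105519221-105519520 for Lrrc8c and chr5:105699719-105700018 for Lrrc8d.
Ano3: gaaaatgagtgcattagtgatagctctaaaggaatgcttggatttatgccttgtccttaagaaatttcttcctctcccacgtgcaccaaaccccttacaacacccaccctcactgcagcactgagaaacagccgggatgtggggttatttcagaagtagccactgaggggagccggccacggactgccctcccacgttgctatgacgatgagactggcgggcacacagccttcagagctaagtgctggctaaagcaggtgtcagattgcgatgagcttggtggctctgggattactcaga
Ano4: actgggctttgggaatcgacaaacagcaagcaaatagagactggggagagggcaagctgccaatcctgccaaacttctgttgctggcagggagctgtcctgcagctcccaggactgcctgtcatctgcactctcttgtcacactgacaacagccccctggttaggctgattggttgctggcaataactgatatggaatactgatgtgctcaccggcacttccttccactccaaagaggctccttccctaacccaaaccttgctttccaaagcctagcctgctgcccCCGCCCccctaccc
Lrrc8b: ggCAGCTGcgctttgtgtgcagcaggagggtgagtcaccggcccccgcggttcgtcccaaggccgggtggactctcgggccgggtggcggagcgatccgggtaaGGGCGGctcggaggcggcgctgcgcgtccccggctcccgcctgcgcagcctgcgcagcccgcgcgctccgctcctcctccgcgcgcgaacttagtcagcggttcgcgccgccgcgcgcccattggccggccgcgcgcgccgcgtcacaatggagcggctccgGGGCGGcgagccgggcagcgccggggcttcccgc
Lrrc8c: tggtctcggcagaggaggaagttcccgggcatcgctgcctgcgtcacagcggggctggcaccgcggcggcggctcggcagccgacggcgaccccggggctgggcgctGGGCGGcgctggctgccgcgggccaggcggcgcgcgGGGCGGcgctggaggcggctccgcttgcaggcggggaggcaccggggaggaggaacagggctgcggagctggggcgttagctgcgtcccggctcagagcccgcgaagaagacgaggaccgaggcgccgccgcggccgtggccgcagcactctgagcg
Lrrc8d: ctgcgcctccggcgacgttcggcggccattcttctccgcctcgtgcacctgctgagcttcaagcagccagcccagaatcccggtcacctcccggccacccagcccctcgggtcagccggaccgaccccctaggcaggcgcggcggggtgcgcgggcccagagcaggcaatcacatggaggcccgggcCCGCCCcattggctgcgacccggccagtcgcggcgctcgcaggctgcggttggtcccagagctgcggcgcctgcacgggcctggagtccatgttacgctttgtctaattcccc

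The promoters printed differ in base composition. The Ano3 window held 8 CpG dinucleotides in 300 bases at 52.0% G and C, and the Ano4 window held 3 at 55.3%. Lrrc8b held 51 at 78.0%, Lrrc8c 44 at 78.0% and Lrrc8d 31 at 71.3%. The median of all 32851 windows was 7 CpG and 52.7% G and C, so the Lrrc8 windows were rich in CpG. The Ano3 window lay near both medians, and the Ano4 window lay below the median in CpG and above it in G and C. The direction of a difference did not follow CpG content throughout, as Ttyh3, higher in IHCs, held 29 and Best1, also higher in IHCs, held 1. RefSeq windows matched 29 of the 36 members. Each member was counted once, at the window nearest the start of its GENCODE gene model. All 32851 windows cover 27025 gene symbols, so some genes count there more than once, and the shares below are not over like sets. The GC box was in 22 of the 29 (75.9%) and in 35.7% of all windows, the TATA box in 1 (3.45%) and in 13.6%, the E-box in 8 (27.6%) and in 16.3%, the T-box half-site in 2 (6.90%) and in 1.27%, and the cyclic AMP response element in 3 (10.3%) and in 1.79%. The Ano3 window held none of the motifs, Ano4 held 1 GC box, and Lrrc8b held 2 GC boxes and 1 E-box. The Ano4 start used by RefSeq lies 86972 bases inside the longest GENCODE gene model, and is not the only annotated start of the gene. These matches are descriptions of letters in a window and not of binding.

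Summed in RPKM, on the exon lengths the authors used, anoctamins were at like levels in IHCs and OHCs, but different genes made up the sum. The 10 Ano genes together reached 101 ± 1.71 RPKM in IHCs and 97.2 ± 1.47 RPKM in OHCs. Ano10 accounted for 45.8% of this sum in IHCs and 85.9% in OHCs, Ano3 for 24.5% and 5.27%, and Ano4 for 21.9% and 0.556%. The sums and shares depend on exon length. The Ano10 values rest on 2599 exon bases, where its GENCODE exons cover 5910, and those of Ano3 and Ano4 rest on 7218 and 7265. In reads, Ano10 had 2711 and 2418 in the IHC libraries, fewer than Ano3 with 4070 and 3557. Of the 7 anoctamins tested, Ano1, Ano3, Ano4 and Ano6 were higher in IHCs and Ano8, Ano9 and Ano10 in OHCs.

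Ano4 (ENSMUSG00000035189, GRCm38 chr10:88948994-89344762, minus strand) measured 22.4 and 21.9 RPKM in the IHC libraries and 0.531, 0.595 and 0.496 RPKM in the OHC libraries. The IHC libraries lay far above all OHC libraries, with 3626 and 3235 reads in IHCs and 72 to 91 reads in OHCs. The gene encodes one of the less studied anoctamins. Its mean was 41.0-fold higher in IHCs, a log2 difference of 5.12 ± 0.09 (SE; limma, adjusted p = 6.3e-07), and it stood above 83.3% of tested genes in IHCs and above 25.1% in OHCs. No other tested member came near this difference, and the next in size was that of Ano3.

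Ano3 (ENSMUSG00000074968, chr2:110655201-110950923, minus strand) measured 25.3 and 24.2 RPKM in IHCs and 4.69, 4.95 and 5.70 RPKM in OHCs. The groups did not overlap. The gene encodes an anoctamin of neurons that is mutated in a form of human dystonia. Its mean was 4.84-fold higher in IHCs (log2 difference 2.26 ± 0.09, limma adjusted p = 9.1e-06). In IHCs, Ano3 and Ano4 were thus at like levels, 24.8 ± 0.818 and 22.1 ± 0.409 RPKM, whereas in OHCs Ano3 stood at 5.11 ± 0.523 and Ano4 at 0.541 ± 0.0505 RPKM.

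Ano10 (ENSMUSG00000037949, chr9:122175874-122294423, minus strand) measured 46.9 and 45.7 RPKM in IHCs and 83.9, 84.6 and 82.0 RPKM in OHCs. On the exon length the authors used, it had the highest RPKM of all 36 members in both cell types. Every OHC library lay above both IHC libraries. The gene encodes an intracellular anoctamin whose loss causes a cerebellar ataxia in people. The fold was 1.80 towards OHCs (log2 difference -0.85 ± 0.03, limma adjusted p = 5.9e-06).

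The other anoctamins were weaker. Ano6, the phospholipid scramblase of blood platelets, measured 5.25 and 5.31 RPKM in IHCs and 3.65, 4.14 and 3.65 RPKM in OHCs, and was higher in IHCs (log2 difference 0.46 ± 0.08, limma adjusted p = 0.0030). Ano8, which tethers the endoplasmic reticulum to the plasma membrane, averaged 2.08 ± 0.165 RPKM in IHCs and 3.26 ± 0.261 RPKM in OHCs and was higher in OHCs. Ano9 had 12 and 18 reads in IHCs and 98, 75 and 76 reads in OHCs, or 0.161 ± 0.0550 and 0.878 ± 0.0776 RPKM. It was also higher in OHCs. Ano1, the calcium-activated chloride channel of epithelia and pacemaker cells, was near the limit of detection, with 34 and 52 reads in IHCs and 8, 16 and 15 reads in OHCs, or 0.327 ± 0.116 and 0.0993 ± 0.0380 RPKM. Its difference passed the test (log2 difference 1.09 ± 0.28, limma adjusted p = 0.014), but not without IHC replicate 2 (adjusted p = 0.14) or in the second lanes alone (adjusted p = 0.062). Ano2, the other classical calcium-activated chloride channel of the family, had no reads in any library, nor had Ano7, and Ano5 had 0 reads in IHCs and 1 to 3 reads per OHC library.

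**Figure D2:**
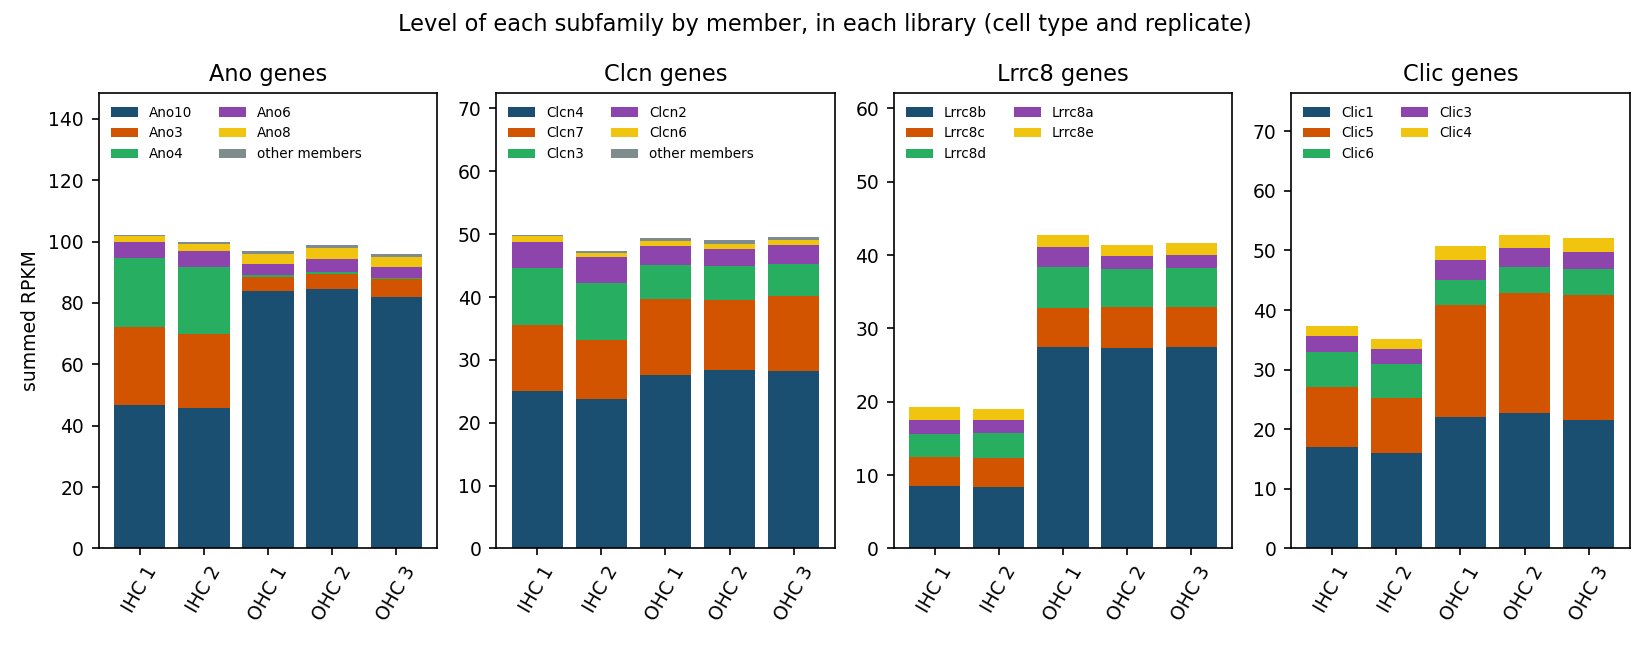
Summed RPKM of the Ano, Clcn, Lrrc8 and Clic genes in each of the 5 libraries, divided by member, on axes that start at 0. The Ano columns are of like height with different content, the Clcn columns are of like height with less Clcn3 in OHCs, and the Lrrc8 columns of OHCs are taller through Lrrc8b.

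The LRRC8 subunits were the family with the largest difference in summed level among those plotted. The sum over the 5 genes was 19.2 ± 0.253 RPKM in IHCs and 41.9 ± 0.742 RPKM in OHCs. Lrrc8b, Lrrc8c and Lrrc8d were higher in OHCs, none of the 5 was higher in IHCs, and Lrrc8a and Lrrc8e did not pass the test. Lrrc8b made up 43.9% of the sum in IHCs and 65.3% in OHCs.

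Lrrc8b (ENSMUSG00000070639, chr5:105415775-105490074, plus strand) measured 8.52 and 8.33 RPKM in IHCs and 27.4, 27.3 and 27.4 RPKM in OHCs. The libraries of a cell type hardly differed, and the groups lay far apart. The fold was 3.25 towards OHCs (log2 difference -1.69 ± 0.03, limma adjusted p = 8.9e-07). LRRC8B is an accessory subunit that needs LRRC8A to reach the plasma membrane as part of the channel. Lrrc8d, the subunit that widens the range of organic solutes passing the channel, measured 3.14 and 3.43 RPKM in IHCs and 5.60, 5.18 and 5.32 RPKM in OHCs (log2 difference -0.69 ± 0.07, limma adjusted p = 3.7e-04). Lrrc8c measured 3.97 and 4.03 RPKM in IHCs and 5.34, 5.65 and 5.50 RPKM in OHCs (log2 difference -0.45 ± 0.06, adjusted p = 8.7e-04). Neither gene overlapped between the cell types. Lrrc8e, a subunit whose channels respond to oxidation, measured 1.77 and 1.5 RPKM in IHCs and 1.73, 1.43 and 1.62 RPKM in OHCs. These overlapped (log2 difference 0.03 ± 0.13, limma adjusted p = 0.82).

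The 3 subunit genes that were higher in OHCs are neighbours. Lrrc8b, Lrrc8c and Lrrc8d follow each other on the plus strand of chromosome 5 within 416.7 kb (chr5:105415775-105832436), whereas Lrrc8a lies on chromosome 2 and Lrrc8e on chromosome 8. Within 250 kb on either side the annotation lists 19 genes, of which 8 besides the 3 subunits were tested. Gbp10, Gbp6, Gbp11, Gm42749 and Lrrc8dos were higher in OHCs, beside 34.4% of all genes tested. Gm43302, Gm10359 and Zfp326 did not pass the test. The gene model Gm43302 spans Gbp10 on the same strand. Gbp10, an interferon-induced GTPase gene whose reads may be shared with its close relatives, averaged 0.387 ± 0.152 RPKM in IHCs and 4.32 ± 0.391 RPKM in OHCs (log2 difference -3.22 ± 0.21, limma adjusted p = 5.9e-05). Gm42749, a long noncoding RNA that ends just before the Lrrc8b start, was listed at 0 in both IHC libraries and at 1.59, 1.35 and 1.55 RPKM in OHCs. Lrrc8dos, annotated antisense to Lrrc8d, averaged 0.363 ± 0.0790 and 1.32 ± 0.413 RPKM and shares exon bases with it, so that reads of the overlap cannot be assigned by strand. Zfp326, the next protein-coding gene beyond Lrrc8d, averaged 1.65 ± 0.146 and 1.98 ± 0.0352 RPKM and missed the threshold (adjusted p = 0.054). These neighbours were chosen after their values were seen.

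Lrrc8a (ENSMUSG00000007476, chr2:30237715-30263790, plus strand) encodes the subunit without which no volume-regulated anion channel forms. It measured 1.95 and 1.71 RPKM in IHCs and 2.71, 1.83 and 1.80 RPKM in OHCs. The groups overlapped (log2 difference -0.18 ± 0.20, limma adjusted p = 0.45). This level depends on the sequencing lane, however. Of the exon bases of Lrrc8a, 66.2% are also annotated to Gm28035, a gene model on the same strand that reads through into Phyhd1, and the way reads were divided between them was not the same in every lane.

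The first and second lane gave Lrrc8a 40 and 147 reads in IHC replicate 1, 37 and 113 in IHC replicate 2, and 100 and 169 in OHC replicate 1. In OHC replicate 2 it had 83 and 83 reads, and in OHC replicate 3 it had 81 and 74. Gm28035 went the other way, with 117 and 13, 103 and 21, and 112 and 10 reads in the first 3 of these libraries, and 113 and 100, and 114 and 92 reads in the others. The second lanes of both IHC libraries and of OHC replicate 1 thus assigned most reads to Lrrc8a and the other 7 lanes assigned fewer. The sum of Lrrc8a, Gm28035 and Phyhd1 was 148 to 198 reads per lane in IHCs and 181 to 236 in OHCs. In the other 7 lanes, Lrrc8a took 25% of this sum in IHCs and 38.6% to 44.4% in OHCs. With the first lanes alone, Lrrc8a was lower in IHCs (log2 difference -1.09 ± 0.13, limma adjusted p = 4.2e-04). With those 7 lanes it was also lower (-1.07 ± 0.12, limma adjusted p = 2.8e-04). With the second lanes alone the difference was 0.33 ± 0.32 (adjusted p = 0.40). Its share of the summed Lrrc8 level in IHCs was 9.53% over both lanes, 4.51% in the first lanes and 14.3% in the second lanes. The level of Lrrc8a is therefore uncertain. Of the 19 members with at least 100 reads in every library, the other 18 had second-to-first lane ratios from 0.798 to 1.22.

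**Figure D3:**
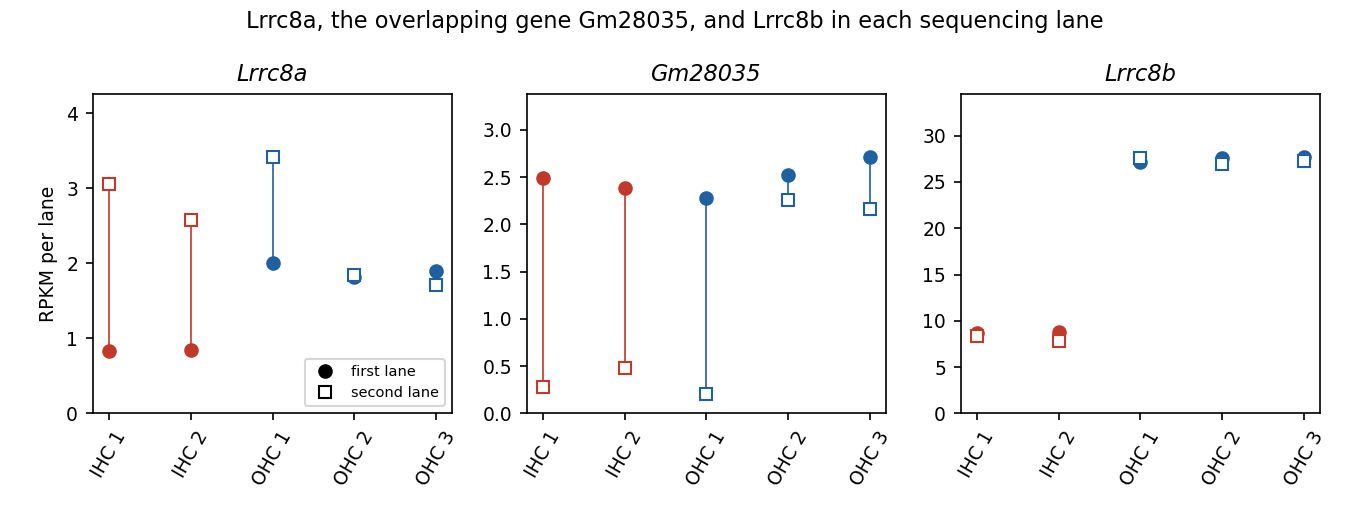
RPKM of Lrrc8a, of the overlapping gene model Gm28035 and of Lrrc8b in the first lane (filled circles) and the second lane (open squares) of each library, on linear axes that start at 0 (red, IHCs; blue, OHCs). In IHC 1, IHC 2 and OHC 1, Lrrc8a is higher and Gm28035 lower in the second lane, while both lanes of Lrrc8b coincide nearly.

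The ClC genes differed little between the cell types. Their summed level was 48.6 ± 1.83 RPKM in IHCs and 49.3 ± 0.284 RPKM in OHCs, and no tested Clcn gene of at least 1 RPKM differed by 2-fold or more. Of the 5 chloride-proton exchangers of endosomes and lysosomes, Clcn3 was higher in IHCs, Clcn4, Clcn5 and Clcn7 in OHCs, and Clcn6 did not pass the test. Clcn4 (ENSMUSG00000000605, chr7:7282309-7300851, minus strand), an exchanger of endosomes, was the highest of the family with 25.1 and 23.7 RPKM in IHCs and 27.6, 28.5 and 28.2 RPKM in OHCs. The groups did not overlap, and the difference was 1.15-fold (log2 difference -0.20 ± 0.04, limma adjusted p = 0.0047). Gm45631, antisense to Clcn4, covers 11.5% of its exon bases.

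Clcn3, an exchanger of endosomes, measured 8.99 and 9.0 RPKM in IHCs and 5.43, 5.35 and 5.07 RPKM in OHCs. It was 1.70-fold higher in IHCs (log2 difference 0.76 ± 0.05, limma adjusted p = 8.1e-05). In IHCs it made up 18.5% of the ClC sum and in OHCs 10.7%. Clcn7, the lysosomal exchanger, measured 10.5 and 9.51 RPKM in IHCs and 12.1, 11.1 and 12.0 RPKM in OHCs, a difference close to the spread of the libraries (log2 difference -0.23 ± 0.06, limma adjusted p = 0.022), which lost significance in 4 alternatives, among them without IHC replicate 2 (adjusted p = 0.12) and without OHC replicate 3 (adjusted p = 0.064). Its partner subunit Ostm1 averaged 6.73 ± 0.332 RPKM in IHCs and 10.6 ± 0.347 RPKM in OHCs. Clcn5, the exchanger mutated in Dent disease of the kidney, averaged 0.0928 ± 0.0202 and 0.338 ± 0.0528 RPKM and was higher in OHCs, and Clcn6 averaged 0.785 ± 0.175 and 0.823 ± 0.0369 RPKM (adjusted p = 0.71).

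Among the ClC channels of the plasma membrane, Clcn2, which opens on hyperpolarization, measured 4.26 and 4.12 RPKM in IHCs and 3.14, 2.73 and 2.93 RPKM in OHCs, without overlap (log2 difference 0.50 ± 0.08, limma adjusted p = 0.0026). Clcn1, the muscle channel, had 7 and 19 reads in IHCs and 1 to 4 reads per library in OHCs and was not tested.

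The CLIC genes were higher in OHCs as a sum, 36.3 ± 1.56 RPKM in IHCs and 51.8 ± 0.976 RPKM in OHCs. Clic1, Clic4 and Clic5 were higher in OHCs, Clic6 was higher in IHCs and Clic3 did not pass the test. CLIC proteins exist in soluble and membrane-bound forms, and several act on the cytoskeleton rather than as plain channels. Clic1 was the most abundant, with 17.0 and 16.0 RPKM in IHCs and 22.0, 22.6 and 21.5 RPKM in OHCs (log2 difference -0.41 ± 0.04, limma adjusted p = 4.4e-04).

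Clic5 (ENSMUSG00000023959, chr17:44188584-44280172, plus strand) encodes a protein at the base of the stereocilia whose loss deafens the jitterbug mouse. It measured 10.02 and 9.20 RPKM in IHCs and 18.8, 20.3 and 21.1 RPKM in OHCs. All OHC libraries lay above both IHC libraries, by 2.09-fold in the means (log2 difference -1.05 ± 0.07, limma adjusted p = 5.0e-05). Its share of the Clic sum was 26.5% in IHCs and 38.7% in OHCs. A list of 6 genes was set out as its possible partners at the stereocilia base (Rdx, Ezr, Msn, Tprn, Ptprq and Myo6). The place of each protein was not tested. IHCs had the higher level of 2 of these genes (33.3%) and OHCs of 3 (50%). The background was 34.4% in each direction, and Myo6 missed the threshold. Ptprq, a receptor phosphatase of the stereocilia base, averaged 18.5 ± 0.226 RPKM in IHCs and 7.51 ± 0.655 RPKM in OHCs and differed most towards IHCs (log2 difference 1.29 ± 0.08, limma adjusted p = 4.5e-05). Msn, the gene for moesin, averaged 0.126 ± 0.0131 and 0.598 ± 0.128 RPKM and differed most towards OHCs (log2 difference -1.62 ± 0.20, adjusted p = 8.5e-04). Myo6, the myosin of the highest level in the list, averaged 103 ± 0.790 and 101 ± 2.32 RPKM (adjusted p = 0.37). Rdx, the gene for radixin, which binds CLIC5 at the base, averaged 26.9 ± 1.38 RPKM in IHCs and 33.9 ± 0.822 RPKM in OHCs.

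Clic6 averaged 5.83 ± 0.138 RPKM in IHCs and 4.26 ± 0.103 RPKM in OHCs (log2 difference 0.44 ± 0.06, limma adjusted p = 9.3e-04). Clic4 averaged 1.73 ± 0.0288 RPKM in IHCs and 2.34 ± 0.0972 RPKM in OHCs and was higher in OHCs, though not with the replicate number as a block (adjusted p = 0.0503). Clic3 averaged 2.59 ± 0.10 and 3.11 ± 0.363 RPKM (limma adjusted p = 0.099). It passed the test only with that block (limma adjusted p = 0.044) and without OHC replicate 3 (limma adjusted p = 0.027). These are not separate checks. Replicate 3 exists for OHCs alone, so the block takes that library out of the difference, and both fits gave a log2 difference of -0.34.

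Of the bestrophins, calcium-activated anion channels, Best1 alone was expressed above 0.1 RPKM. Best1 (ENSMUSG00000037418, chr19:9985174-10001633, minus strand), the gene of a hereditary macular dystrophy, measured 4.64 and 5.70 RPKM in IHCs and 1.99, 2.28 and 1.93 RPKM in OHCs. Both IHC libraries lay above all OHC libraries, 2.50-fold in the means (log2 difference 1.28 ± 0.12, limma adjusted p = 2.7e-04). Best2 had no reads, and Best3 had 3 reads in OHC replicate 3 alone. Cftr, the cyclic AMP-gated chloride channel of epithelia, had no reads in any library, which allows up to 3 reads per library.

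The tweety homologues were expressed at a few RPKM, with the leading gene exchanged. Ttyh3 (ENSMUSG00000036565, chr5:140620578-140649031, minus strand) measured 5.75 and 5.08 RPKM in IHCs and 2.88, 2.58 and 2.17 RPKM in OHCs, without overlap (log2 difference 1.07 ± 0.13, limma adjusted p = 8.0e-04). Ttyh1 measured 3.89 and 3.73 RPKM in IHCs and 5.16, 5.13 and 5.04 RPKM in OHCs (log2 difference -0.41 ± 0.06, adjusted p = 0.0012). Ttyh3 therefore made up 57.9% of the Ttyh sum in IHCs and 30.8% in OHCs, and Ttyh1 40.8% and 62.3%. Ttyh2 had 13 and 7 reads in IHCs and 53, 51 and 32 reads in OHCs, or 0.124 and 0.564 RPKM, and was higher in OHCs. The tweety proteins have been described as chloride channels, and whether they conduct ions is debated.

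**Figure D4:**
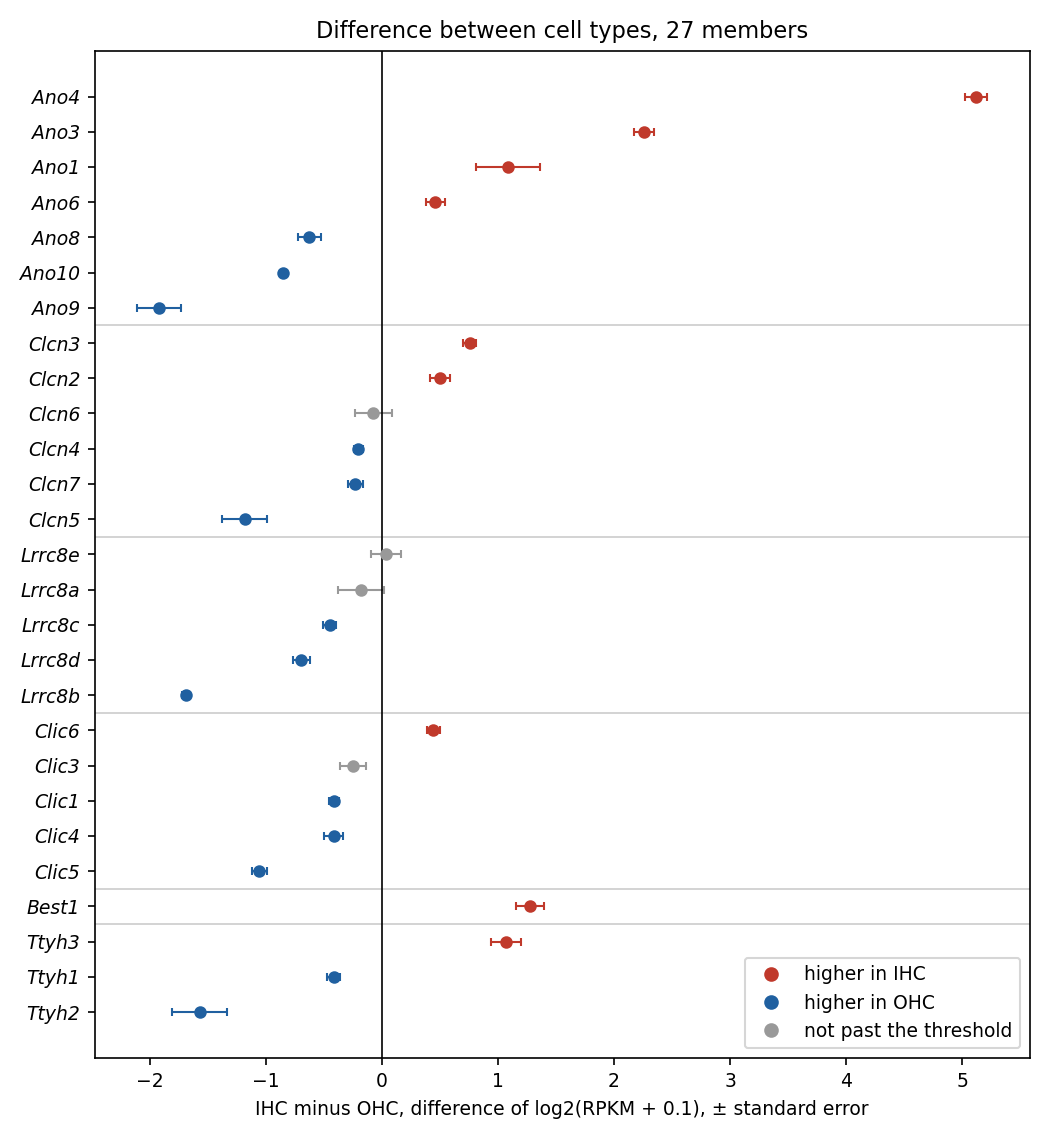
Log2 difference (IHC minus OHC, from log2(RPKM + 0.1)) of 27 of the 28 tested members with its standard error, grouped by family and coloured by the limma call (red, higher in IHCs; blue, higher in OHCs; grey, not past the threshold). Ano4 stands at 5.12, and the LRRC8 genes lie at or below 0 with the exception of Lrrc8e at 0.03.

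Proteins that assist or accompany chloride channels make up a further list of 18 genes. Among the 10 that could be tested, 4 had higher levels in IHCs, 5 had higher levels in OHCs and Clca2 missed the threshold, against the background of 34.4% each way. Hepacam, an adhesion protein that binds ClC-2 in glia, differed most towards IHCs, 0.444 ± 0.00236 against 0.0666 ± 0.0779 RPKM (log2 difference 1.80 ± 0.38, limma adjusted p = 0.0070), and Bsnd, an accessory subunit of ClC channels, differed most towards OHCs, 0.0437 ± 0.0388 against 0.226 ± 0.0936 RPKM (log2 difference -1.17 ± 0.32, adjusted p = 0.019). Of the 7 markers of the stria vascularis, 5 were tested and 3 of these were higher in OHCs (60%), beside the same background. Kcne1 among them averaged 0.0358 ± 0.0289 RPKM in IHCs and 1.01 ± 0.0828 RPKM in OHCs. Kcnq1, at 0.955 and 0.762 RPKM, and Met missed the threshold. The part of such cells in the value of Bsnd was not tested. Tmem206, the proton-activated chloride channel of endosomes and plasma membrane, measured 15.9 and 13.5 RPKM in IHCs and 6.58, 6.42 and 7.35 RPKM in OHCs (log2 difference 1.10 ± 0.09, limma adjusted p = 1.6e-04). It is a chloride channel outside the families counted here. Tmem9b, a partner of endosomal ClC exchangers, was the highest of the list, with 158 ± 0.763 RPKM in IHCs and 197 ± 2.38 RPKM in OHCs. The 8 genes not tested were all the Clca genes other than Clca2, and Mlc1.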

How the data were processed

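RNA-seq libraries of IHCs (2) and OHCs (3) were sequenced in 2 lanes each. The RPKM values were made by the authors before deposit, who mapped reads to GRCm38 (mm10) with CLC Genomics Workbench and derived gene levels with HTSeq count, whose versions are not given in the sources used here; the deposited RPKM table has 1 column per lane and was used as it stands. Lanes of a library were averaged. The 16462 of 48440 genes that reached 0.1 RPKM in 2 or more libraries were analysed as log2(RPKM + 0.1) with limma 3.58.1 in R 4.3.3, with the variance trend, two-sided, with Benjamini-Hochberg adjustment over all genes, a threshold of 0.05 and 3 residual degrees of freedom. The fit was tested on simulated data. Other steps used Python 3.11.15, numpy 2.4.6, pandas 2.3.3 and matplotlib 3.10.9. Reads were recovered from RPKM, the divisor of each lane and exon length, taken from GENCODE M21 or, for 7 members (Ano6, Ano8, Ano10, Best1, Clcn7, Clic5 and Ttyh3), as the length that made the values whole. With GENCODE lengths, 69.8% to 70.6% of a lane's values came out whole (tolerance 0.01). Promoters came from RefSeq (GRCm38.p6).

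Members, lists and naming rule were chosen with earlier results of these data known, so nothing here is independent support for a pattern those results already showed. Named in full were members past the threshold that differed 2-fold or more and averaged 1 RPKM or more in either cell type, the highest member of each family, members under 0.1 RPKM in all libraries, and of each list the largest difference each way and the highest mean. Other members were given where compared within their family, and some items are not reported here. In all, 17 alternatives were run. For the values, these were pseudocounts of 0.01 and 1, no filter, a filter of 1 RPKM, and median-of-ratios and quantile scaling. For the lanes, these were each lane alone and the 7 lanes that assigned fewer reads to Lrrc8a. For the model, these were a robust limma prior, limma without a trend, and a block for the replicate number. Each library was also left out in turn.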

Additional observations from a re-analysis of the deposited data

How the results depend on the processing

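Of the 28 tested members, 20 kept their call and direction in every one of the 17 alternatives that gave them a value (the filter of 1 RPKM gave none for 6 members), and of 467 member values 448 did so, 6 reversed, 6 newly passed the threshold and 7 lost it. The reversed values (log2 IHC minus OHC) all belonged to members that had not passed the test. Clcn6 was at 0.092 under quantile normalization, and at -0.28 to 0.13 with a library left out. Lrrc8a was at 0.33 in the second lanes, and at -0.28 to 0.0053 with a library left out, the highest without OHC replicate 1. Lrrc8e was at -0.081 to 0.15 with a library left out. With 5060 genes higher in IHCs and 4985 in OHCs under the replicate block, 9 and 14 members were counted, as without it, with Clic3 in place of Clic4. Replicate 3 exists for OHCs alone, so under the block the differences rest on replicates 1 and 2, as they do without OHC replicate 3. The labels do not say whether equal numbers mean the same mice. The correlation of the differences between replicates 1 and 2 was -0.002 across the cell types, which cannot decide this. Leaving out each library gave 8 to 9 members higher in IHCs and 13 to 15 in OHCs, and 4337 to 5753 and 4632 to 5651 genes. The median of all genes moved by less than 0.1 in every setting. Depth limits Ano1, Ano9, Clcn1, Clcn5 and Ttyh2, which rest on few reads in at least 1 cell type. Of the listed genes outside the families, Bsnd and Slc4a10 in IHCs and Hepacam and Slc12a5 in OHCs averaged under 0.1 RPKM, so their differences are limited likewise. The cause of the lane difference at Lrrc8a was not tested.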

Other observations

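Chloride gradients are set by transporters as well as channels. Of 14 chloride transporter genes, 12 were tested, 2 were higher in IHCs, 9 were higher in OHCs and 1 missed the threshold, where 34.4% of all genes tested were higher in each cell type. Slc12a7, a potassium-chloride cotransporter, had the highest level, 189 and 181 RPKM in IHCs and 159, 161 and 156 RPKM in OHCs, and Slc12a5, the neuronal cotransporter that extrudes chloride, differed most towards IHCs, 0.294 against 0.0848 RPKM (log2 difference 1.10 ± 0.20, limma adjusted p = 0.0041). Slc12a2, which loads cells with chloride, measured 3.71 and 3.58 RPKM in IHCs and 8.66, 9.12 and 9.59 RPKM in OHCs (log2 difference -1.30 ± 0.06, adjusted p = 1.9e-05). Slc4a10, a sodium-dependent bicarbonate transporter, had the largest fitted difference towards OHCs, 0.0951 against 0.856 RPKM (log2 difference -2.29 ± 0.17, adjusted p = 1.1e-04). Slc4a1, the band 3 anion exchanger of red blood cells, was listed at 0 in both IHC libraries and at 0.345, 0.205 and 0.410 RPKM in OHCs, so that no fold can be given, and Slc12a8 was likewise listed at 0 in IHCs. The erythrocyte markers, which were higher in OHCs, go with the value of Slc4a1, and their part in it was not tested. Slc12a2 is also made by supporting cells and fibrocytes, and the fibrocyte markers summed to 188 to 189 RPKM in IHCs and 404 to 434 RPKM in OHCs. The supporting cell markers summed to 1043 RPKM in IHCs and 711 to 716 RPKM in OHCs, with 5 of 10 higher in each. Their part in these values was not tested.

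Of the 6 kinases of the WNK-SPAK cascade, which phosphorylates these transporters, 4 were higher in OHCs (Wnk1, Wnk2, Stk39 and Oxsr1), 1 was higher in IHCs and Wnk3 did not pass the test, beside the same background of 34.4% each way. Wnk4 was the exception, at 5.30 and 5.26 RPKM in IHCs and 1.72, 2.32 and 2.05 RPKM in OHCs (log2 difference 1.35 ± 0.13, limma adjusted p = 2.8e-04). Wnk1 differed most towards OHCs, 1.09 against 1.95 RPKM (log2 difference -0.79 ± 0.10, adjusted p = 8.3e-04), and Stk39, the gene for SPAK, had the highest level, 69.1 RPKM in IHCs and 79.3 RPKM in OHCs.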
